A study of Homo sapiens with 19 samples.

Results

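A set of 10 imprinted genes around PEG3 were followed in the RNA of 501Mel, a human melanoma cell line, and Hermes 3A, an immortalised human melanocyte line, after silencing of BRG1 or of MITF. BRG1, encoded by SMARCA4, is the ATPase of SWI/SNF-type chromatin remodelling complexes, and MITF is the transcription factor that sets the melanocyte programme. The genes were PEG3, PEG10, IGF2, H19, MEST, DLK1, MEG3, NDN, SNRPN and PLAGL1, each matched by symbol to an Ensembl identifier, so that 10 of the 44717 listed identifiers were followed. They were selected on imprinted status and on the gain of counts after BRG1 loss, as seen for PEG3. The values with shBRG1 are therefore given as a description with no test, whereas the MITF knockdowns, the scramble controls and the cell lines were compared by tests. Of 19 samples, 501Mel gave 3 with shSCR1, 3 with shBRG1, 2 with shSCR2 and 2 with shMITF, where SCR is a scramble control hairpin. Hermes 3A gave 3 each with shSCR, shMITF and shBRG1, and its shSCR samples served as control for both knockdowns. All samples were total RNA depleted of ribosomal RNA, from cells infected with lentivirus expressing a short hairpin RNA and selected for the vector, which the controls carry too. Each kind of cell was a single line, so cell type and line cannot be told apart.

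Imprinted genes are transcribed from only the maternal or only the paternal copy, according to DNA methylation set in the germ line at control regions that act on whole clusters of neighbours. PEG3, a zinc finger protein, PEG10 and RTL1, both derived from retrotransposons, IGF2, MEST, DLK1, NDN, SNRPN and PLAGL1 are known as paternally expressed genes, and the long noncoding RNAs H19 and MEG3 as maternally expressed. Several of them act on growth in the fetus and placenta and are kept low in many adult tissues. H19 and IGF2 share a cluster, as do DLK1 and MEG3, and NDN and SNRPN.

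The promoters of 3 members are shown because their genes cover the range met among the members: H19 and MEG3 are RNAs present at low level before knockdown, and NDN had the highest level per kilobase of the members in every group. The sequences are those of RefSeq on GRCh38.p14, windows of 300 bases around the annotated start that lie mostly before it, with each CG dinucleotide, the target of DNA methylation, in capitals. They cover chr11:2001217-2001516 on the minus strand for H19, chr14:100825858-100826157 on the plus strand for MEG3 and chr15:23687256-23687555 on the minus strand for NDN.
H19: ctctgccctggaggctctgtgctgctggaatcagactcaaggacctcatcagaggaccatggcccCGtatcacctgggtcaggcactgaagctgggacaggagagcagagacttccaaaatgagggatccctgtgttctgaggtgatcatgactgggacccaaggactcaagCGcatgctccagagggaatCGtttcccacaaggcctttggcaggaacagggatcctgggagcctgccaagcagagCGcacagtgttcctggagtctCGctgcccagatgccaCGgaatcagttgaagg
MEG3: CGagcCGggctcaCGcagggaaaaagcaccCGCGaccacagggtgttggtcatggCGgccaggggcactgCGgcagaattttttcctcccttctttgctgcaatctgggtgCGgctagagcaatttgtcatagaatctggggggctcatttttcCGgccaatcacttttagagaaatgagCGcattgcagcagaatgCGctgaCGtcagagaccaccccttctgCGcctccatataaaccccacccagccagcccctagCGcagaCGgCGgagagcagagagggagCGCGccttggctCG
NDN: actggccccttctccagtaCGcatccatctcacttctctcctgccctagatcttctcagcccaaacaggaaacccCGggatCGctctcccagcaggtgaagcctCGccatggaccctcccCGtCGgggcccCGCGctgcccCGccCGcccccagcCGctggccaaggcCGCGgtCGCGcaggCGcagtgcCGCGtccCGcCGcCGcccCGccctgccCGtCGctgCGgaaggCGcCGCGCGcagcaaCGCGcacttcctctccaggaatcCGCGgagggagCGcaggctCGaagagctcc
The H19 window held 6 CG dinucleotides, the MEG3 window 19 and the NDN window 35. Over 35116 promoters of this length the median was 14, and 33.7% held fewer than H19, 57.1% fewer than MEG3 and 85.9% fewer than NDN. The MEG3 window was the first of 3 overlapping entries and lies inside the span of MEG3 in GENCODE 29, which places the gene's start further upstream than RefSeq does, and 6 of the 10 members had an entry. Both strands were also searched for CATGTG and CACGTG, E-box letters of the kind bound by MITF, and for GCCATNTT, the core letters bound by YY1. CATGTG was held by 11.1% of all promoters, CACGTG by 7.26% and GCCATNTT by 6.58%. None of these letters was found in the H19, MEG3 or NDN windows. CATGTG was held by 2 of 5 overlapping MEST entries, CACGTG by 1 of 5 and GCCATNTT by 1 of 5 PLAGL1 entries, and GCCATNTT by 1 of 4 SNRPN entries.

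The libraries held 29158502 to 78857900 counted reads each. Levels are depth-normalised counts (CPM), scaled over all 19 samples. Calls, here and further on, needed both an adjusted p under 0.05 and a change beyond 1 on the log2 scale in edgeR's quasi-likelihood test. With shBRG1 SMARCA4 fell by 2.36 on the log2 scale in 501Mel and by 2.38 in Hermes 3A, and with shMITF the change of MITF was -1.06 and -0.85. MITF also changed with shBRG1, by -1.55 (SE 0.06) in 501Mel and -0.43 (SE 0.04) in Hermes 3A. All 7 melanocyte markers were above 0 in every group, which matches the labelled cell type, but their summed level moved with BRG1 loss. In 501Mel it lay between 29340 and 31540 CPM with shSCR1 and between 3113 and 3408 with shBRG1, where 7 of 7 were called lower. In Hermes 3A it lay between 63370 and 64560 CPM with shSCR and between 30260 and 31900 with shBRG1, where all 7 were lower and 2 of them, TYRP1 and DCT, passed the calling limit. The summed level of 6 fibroblast markers was higher. It lay between 3.72 and 5.16 CPM with shSCR1 and between 16.2 and 19.9 with shBRG1 in 501Mel, where 4 of 5 tested were called higher, and between 71.5 and 80.1 with shSCR and between 138 and 147 with shBRG1 in Hermes 3A, where 2 of 4 were. Of all genes, 21.7% were called higher and 17.4% lower in 501Mel, and 5.78% and 3.47% in Hermes 3A. Nothing is read from the count of fibroblast markers in 501Mel, since COL3A1 passed the filter on low counts only through its shBRG1 samples. LUM, also called there, had a mean of 7.17 CPM with shBRG1 and 7.08 with shSCR2. Most of the Hermes 3A sum was COL1A2, at a mean of 67.3 CPM with shSCR and 139 with shBRG1. LUM in Hermes 3A fell by 0.79 on the log2 scale (SE 0.12) with shBRG1. With shMITF in Hermes 3A the melanocyte sum lay between 25940 and 34030 CPM and the fibroblast sum between 112 and 219. In 501Mel the melanocyte sum lay between 20750 and 23270 CPM with shSCR2 and between 11380 and 11790 with shMITF, and the fibroblast sums overlapped. Of 5 keratinocyte markers, only 2 could be tested with shBRG1, and 1 was called higher in 501Mel and 0 in Hermes 3A. That marker, TP63, passed the filter in 501Mel only through its shBRG1 samples, so nothing is read from the call. The part of these shifts in the members' values was not tested, and in bulk RNA fewer cells of a type and less RNA per cell cannot be told apart. The labels do not say whether replicates were separate cultures, so the p-values measure only the spread between these samples. Replicates of Hermes 3A with shMITF stood further apart than those of the other groups, with a chi-square per degree of freedom of 105 to 157.

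In the control samples, NDN and PEG10 were the main transcripts among the members, and the other 8 members were low or near 0. Levels are compared between genes per kilobase of exon. In 501Mel with shSCR1, NDN stood at 34.6 ± 0.86 CPM per kb (SD, n = 3) and PEG10 at 15.9 ± 0.70, followed by SNRPN at 0.617 ± 0.049 and H19 at 0.406 ± 0.058. IGF2 came next at 0.0355 ± 0.014, and MEST, DLK1, PEG3, MEG3 and PLAGL1 lay between 0.0176 and 0.00681 CPM per kb. From IGF2 downwards, neighbours in this order did not differ beyond their SDs. In Hermes 3A with shSCR, the order was again led by NDN at 14.4 ± 0.45 and PEG10 at 5.42 ± 0.37 CPM per kb, with SNRPN at 0.495 ± 0.060 and MEST at 0.285 ± 0.022. MEG3 was at 0.0162 ± 0.0022 CPM per kb, H19, IGF2, PLAGL1 and DLK1 lay between 0.0105 and 0.00143, with overlapping SDs between neighbours from MEG3 to DLK1, and PEG3 had no count in any of the 3 libraries.

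Comparing the scramble controls of both lines asked how a melanoma line and a melanocyte line differ at these loci. PEG10, H19 and NDN were higher in 501Mel, and MEST and MEG3 were higher in Hermes 3A. That is 3 of 7 tested members higher, where 20.1% of 20354 tested genes were called higher, and 2 of 7 lower, where 18% of genes were. Nothing is read from these counts, or from the adjusted p of IGF2, H19 and MEST. The reason is that IGF2 and H19 passed the filter on low counts only through the shSCR1 samples of 501Mel and MEST only through Hermes 3A. NDN, a growth-suppressing protein of the MAGE family, lay between 64.9 and 82.6 CPM in the 5 scramble libraries of 501Mel and between 27.0 and 28.7 in the 3 of Hermes 3A, so the lines did not overlap. Its log2 difference was 1.37 ± 0.06 (SE, adjusted p = 3.73e-12). PEG10 was likewise apart, with 103 to 245 CPM against 34.3 to 39.1, and a log2 difference of 1.97 ± 0.19 (adjusted p = 8.42e-05). MEST, an alpha/beta hydrolase, had 50 to 60 counts in the Hermes 3A controls and 2 to 8 in those of 501Mel, a log2 difference of -3.79 ± 0.30 (adjusted p = 5.63e-09). MEST lies against COPG2 on the opposite strand, and reads of the overlap cannot be assigned because the strand setting of the counting is not given. For H19, a log2 difference of 3.44 ± 0.59 (adjusted p = 5.83e-05) rested on both scramble groups, which differed from each other: 42 to 64 counts with shSCR1, 4 and 9 with shSCR2, and 0 to 3 in Hermes 3A. MEG3 was lower in 501Mel by 1.20 on the log2 scale (SE 0.38, adjusted p = 0.0088), but with shSCR1 as the only 501Mel control the difference was -0.69 (adjusted p = 0.116). SNRPN (adjusted p = 0.524) and IGF2 (adjusted p = 0.701) did not pass, and PEG3, DLK1 and PLAGL1 were too low to be tested.

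**Figure D1:**
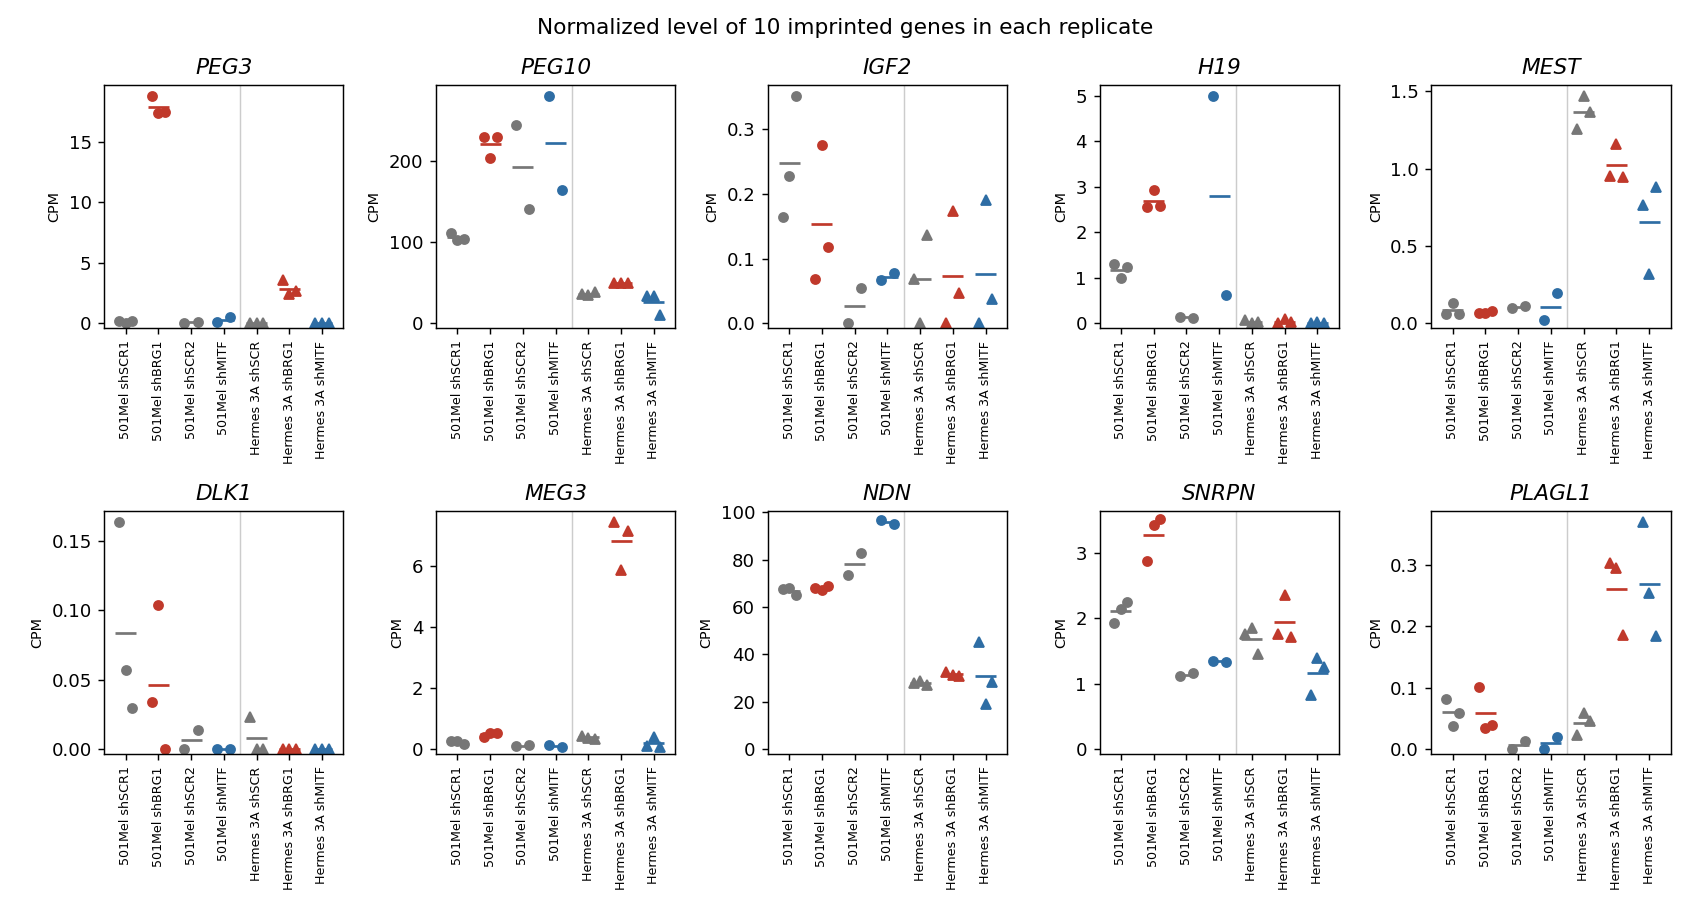
Each panel plots the CPM of 1 imprinted gene in every replicate of the 7 groups, with circles for 501Mel, triangles for Hermes 3A, a bar at each group mean and a linear axis that differs between panels. PEG3 sits at 17.4 to 18.7 CPM in the 501Mel samples with shBRG1 and at 2.37 to 3.53 CPM in those of Hermes 3A, and at 0 in all 6 other Hermes 3A samples.

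PEG3 (ENSG00000198300), on chr19:56810077-56840728, minus strand, in GENCODE 29 on GRCh38, gained counts after BRG1 loss in both lines. In 501Mel it had 8, 3 and 7 counts with shSCR1 and 1106, 1005 and 883 with shBRG1. In Hermes 3A it had 0, 0 and 0 counts with shSCR and 163, 137 and 114 with shBRG1. The shBRG1 samples of each line lay above every other sample of that line without overlap. The level reached was 17.8 ± 0.78 CPM (SD, n = 3) in 501Mel and 2.85 ± 0.61 CPM in Hermes 3A. Against shSCR1 the ratio in 501Mel was 135, with an exact 95% counting interval of 85 to 227 that covers counting error only, and the fitted log2 fold change was 6.98 ± 0.17 (SE). In Hermes 3A PEG3 was at least 114-fold higher, taking 3 counts over the 3 control libraries, or 0.0247 CPM, as the most that a count of 0 allows. Per kilobase, PEG3 moved from rank 8 of the 10 members to rank 3 in 501Mel, and from rank 10 to rank 5 in Hermes 3A.

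PEG3 was also set among all genes without counts in controls. A gene was taken as silent where all control libraries of the shBRG1 comparison held 0 counts and as gained where every shBRG1 library held at least 10. In 501Mel these controls were the shSCR1 libraries, and those with shSCR2 were not used. In Hermes 3A 12227 genes were silent and 2 gained, PEG3 and GJD2, a gap junction protein named here after its values were seen, with 63, 77 and 42 counts. Those 2 are 0.0164% of the silent genes. In 501Mel 54 of 8316 silent genes gained (0.649%), of which 26 were protein coding, and none was a member, since PEG3 had 18 control counts in sum. No gene was gained from silence in both lines. As the members were chosen by such gains, the rank of PEG3 among them is a description.

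Around PEG3, the counts of its neighbours were few. USP29, a ubiquitin protease gene that shares the PEG3 control region, had 1 count in sum over the shSCR1 libraries of 501Mel and 18 with shBRG1, with 4 to 8 in each. ZIM3, a zinc finger gene of the same cluster, had 6 and 17. Both were too low to be tested, and ZIM2, MIMT1 and PEG3-AS1 had no matching identifier.

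The genes whose log2(CPM + 0.5) followed PEG3 most closely over the 19 samples, among 15226 genes with at least 100 counts, were MOCS2-DT (Pearson r = 0.97), LINC01134 (0.97), AC022167.2 (0.95), CPA4 (0.95) and CACNA1B (0.95). These values are a description over samples that fall into 7 groups, with PEG3 high in 2 of them. Among the members, SNRPN came nearest at 0.779, ahead of H19 at 0.482, MEG3 at 0.421, PEG10 at 0.421 and NDN at 0.191.

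MEG3 (ENSG00000214548, chr14:100779410-100861031, plus strand) was the other member with a large gain after BRG1 loss, and the gain was in Hermes 3A. There it had 19, 12 and 15 counts with shSCR and 344, 339 and 310 with shBRG1, or 0.376 ± 0.050 against 6.83 ± 0.84 CPM, a log2 fold change of 4.18 ± 0.19. In 501Mel it had 13, 14 and 5 counts with shSCR1 and 24, 30 and 26 with shBRG1, a log2 fold change of 0.95 ± 0.31. The shBRG1 samples lay above their controls in both lines, and the shBRG1 effect was lower in 501Mel than in Hermes 3A by 3.25 on the log2 scale (SE 0.42). The partner gene DLK1, a Notch-like membrane protein, had at most 8 counts in any library and none in the shBRG1 samples of Hermes 3A, which allows up to 0.0204 CPM there. So PEG3 gained in both lines, and MEG3 by a larger factor in the melanocytes. The MEG3 locus overlaps MIR770 on the same strand, and reads could be split between them.

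Of the remaining members, PEG10 and H19 were higher with shBRG1 than with shSCR1 in 501Mel, each by about the calling limit. PEG10 (chr7:94656325-94669695, plus strand) had 111.7, 103.0 and 104.4 CPM with shSCR1 and 229.5, 203.4 and 229.7 with shBRG1 in 501Mel, a log2 fold change of 0.99 ± 0.05. In the melanocytes it had 35.5, 34.3 and 39.1 CPM with shSCR and 49.7, 49.4 and 49.1 with shBRG1, a log2 fold change of 0.46 ± 0.06. The groups compared did not overlap in either line, and the effect was 0.50 ± 0.08 larger in 501Mel on the log2 scale. With shSCR2, the other scramble of 501Mel, PEG10 had 245.0 and 140.5 CPM, on both sides of the shBRG1 samples. Against shSCR1 and shSCR2 pooled its log2 fold change was 0.61 ± 0.30. PEG10 shares its start region with SGCE on the opposite strand, which had -0.997 in 501Mel on the log2 scale, and reads of the shared stretch cannot be assigned between them.

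H19 (chr11:1995176-2001470, minus strand) had 64, 52 and 42 counts with shSCR1 and 151, 169 and 130 with shBRG1 in 501Mel, a log2 fold change of 1.13 ± 0.15. Hermes 3A gave 4 counts in sum with shSCR and 6 with shBRG1. H19 was thus measurable in 501Mel and near 0 in Hermes 3A. IGF2 (chr11:2129112-2149603, minus strand), the growth factor of the same cluster, had 8, 12 and 12 counts with shSCR1 and 4, 16 and 6 with shBRG1, which overlap. In Hermes 3A it had at most 10 counts in any library.

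SNRPN (chr15:24823637-24978723, plus strand), which encodes a spliceosome protein, had 94, 113 and 77 counts with shSCR1 and 170, 199 and 178 with shBRG1 in 501Mel, a log2 fold change of 0.57 ± 0.13. Hermes 3A libraries had 77, 63 and 64 with shSCR and 81, 136 and 74 with shBRG1, and the CPM ranges of 1.46 to 1.85 and 1.71 to 2.36 overlapped. SNRPN overlaps SNHG14 on the same strand, and its counts may be affected by how shared reads were assigned. NDN (chr15:23685400-23687330, minus strand), in the same cluster, had 67.6, 68.0 and 64.9 CPM with shSCR1 and 68.1, 67.2 and 68.8 with shBRG1, which overlap. Its log2 fold change was -0.04 ± 0.05, and 0.31 when samples were scaled by library sizes alone, a scaling that moved the median of all genes from 0.05 to 0.40. In Hermes 3A NDN had 27.0 to 28.7 CPM with shSCR and 30.9 to 32.4 with shBRG1, which did not overlap, at a log2 fold change of 0.19 ± 0.06.

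MEST (chr7:130486171-130506465, plus strand) was measurable in Hermes 3A, with 55, 50 and 60 counts with shSCR and 44, 67 and 41 with shBRG1. In CPM the shBRG1 samples lay below the controls, at 1.02 ± 0.12 against 1.37 ± 0.11, a log2 fold change of -0.39 ± 0.22. PLAGL1 (chr6:143940300-144064599, minus strand), a zinc finger regulator of other imprinted genes, had 1, 2 and 2 counts with shSCR and 14, 17 and 8 with shBRG1 in Hermes 3A. The ratio was 6.45 with a counting interval of 2.54 to 21.0, below the level at which the fit could be made. In 501Mel PLAGL1 had 8 counts in sum with shSCR1 and 10 with shBRG1.

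In all, 7 of the 10 members were high enough to be fitted in 501Mel with shBRG1, and PEG3 and H19 were past the calling limit upwards, where 21.7% of 20514 genes were called higher and 17.4% lower. In Hermes 3A 6 were fitted, with PEG3 and MEG3 past the limit, where 5.78% of 17222 genes were higher and 3.47% lower. Nothing is read from these counts, since the gain chose the members and PEG3 passed the filter only through its shBRG1 samples. H19 in 501Mel at 1.13 was just inside the limit, and PEG10 at 0.99 and MEG3 at 0.95 were just outside it. For the difference of the shBRG1 effect between lines, 8 members were fitted, with 0 past the limit upwards and MEG3 downwards, where 12% of 21697 genes were higher in 501Mel and 14.9% lower.

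**Figure D2:**
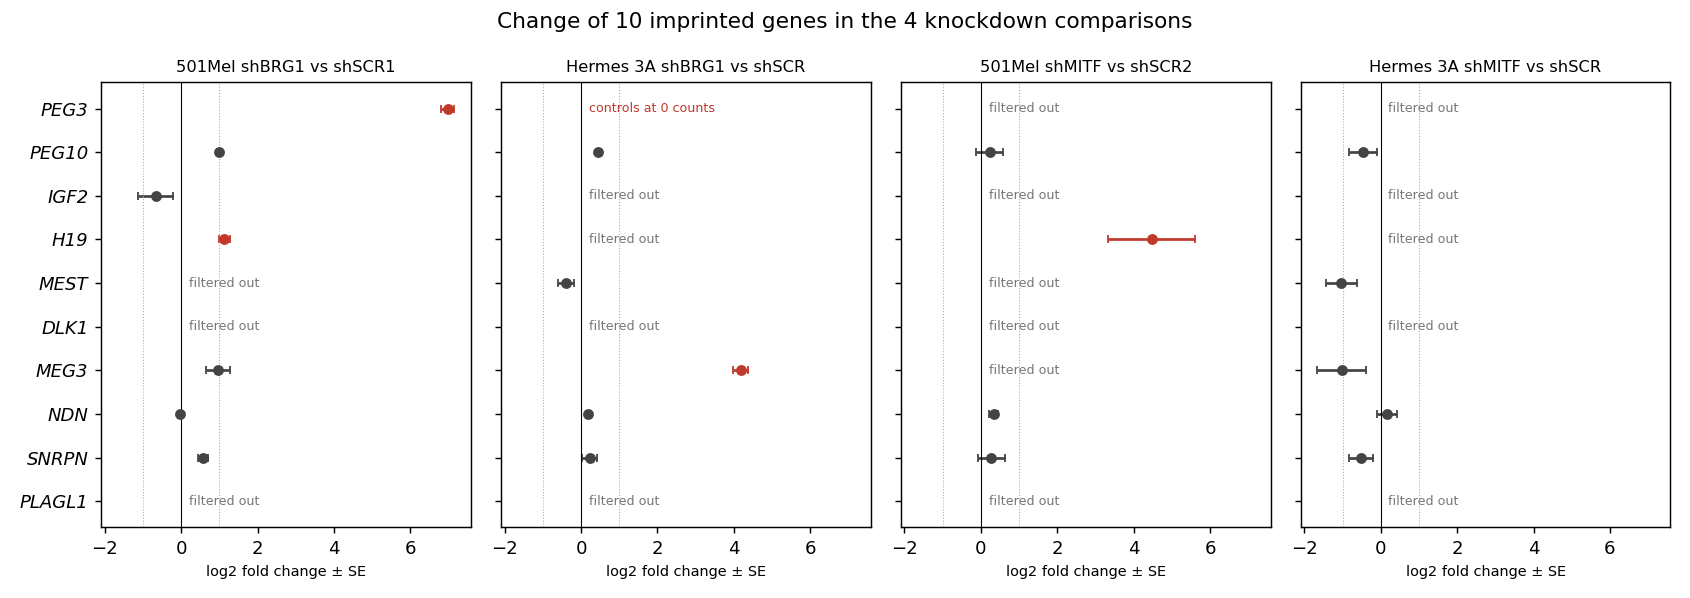
Points are fitted log2 fold changes with their SE for the 10 members in the 4 knockdown comparisons, red where past the calling limit, and dotted lines stand at the limits. PEG3 stands at 6.98 in 501Mel with shBRG1, MEG3 at 4.18 in Hermes 3A with shBRG1 and H19 at 4.47 in 501Mel with shMITF, while members marked as filtered out had too few counts and PEG3 in Hermes 3A is not drawn because its controls had 0 counts.

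Silencing of MITF asked whether the loss of this factor moves the same genes. In 501Mel H19 was past the calling limit and no other member was, but it passed the filter on low counts only through its shMITF samples, so nothing is read from the call. It had 4 and 9 counts with shSCR2 and 226 and 32 with shMITF, so that the groups did not overlap but the shMITF replicates, at 4.99 and 0.620 CPM, lay far apart. The log2 fold change was 4.47 ± 1.15 (adjusted p = 0.048), and the ratio of 21.3 had a counting interval of 12.2 to 40.5. The call was lost against shSCR1 and shSCR2 pooled, at 1.89 (adjusted p = 0.333), and without shSCR2 replicate 1, at 4.498 (adjusted p = 0.522), or 2, at 4.38 (adjusted p = 0.470), and without shMITF replicate 1 the value was 2.34. With 1 of 4 tested members higher and 0 lower, the background was 5.59% of 17701 genes higher and 3.4% lower. PEG10 (0.24 ± 0.36, adjusted p = 0.696), NDN (0.34 ± 0.12, adjusted p = 0.082) and SNRPN (0.28 ± 0.35, adjusted p = 0.618) did not pass. IGF2, MEST, DLK1, MEG3 and PLAGL1 were too low to be tested, with at most 10 counts in any shSCR2 or shMITF library.

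PEG3 had 1 and 7 counts with shSCR2 and 5 and 25 with shMITF, which is 0.297 ± 0.26 CPM (SD, n = 2) and below the filter. Its ratio was 4.02 with a counting interval of 1.8 to 10.2, and without a filter the fit gave 2.05 on the log2 scale (adjusted p = 0.0302). In Hermes 3A PEG3 had 0 counts in all 3 shMITF libraries, which allows up to 0.0320 CPM. The gain seen with shBRG1 was therefore not detected with shMITF in the melanocytes at this depth, and in 501Mel the level with shMITF stayed below 0.5 CPM.

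In Hermes 3A with shMITF, 0 of 5 tested members were called, where 3.35% of 16508 genes were higher and 4.04% lower, and DESeq2 also called 0. At an unadjusted p under 0.05 edgeR's test listed 1 of the 5, where it listed 5367 of 16508 genes. That member was MEST. It had 55, 50 and 60 counts with shSCR and 27, 10 and 24 with shMITF, which did not overlap, and moved by -1.04 ± 0.41 on the log2 scale (adjusted p = 0.117). In a fit of all Hermes 3A groups together it passed (adjusted p = 0.0448). MEG3 had 19, 12 and 15 counts with shSCR and 3, 12 and 2 with shMITF, which is -1.02 ± 0.64 on the log2 scale (adjusted p = 0.309), and without shMITF replicate 2 it was -2.17 (adjusted p = 0.0356). PEG10 had 33.7, 33.1 and 10.7 CPM with shMITF against 34.3 to 39.1 with shSCR (adjusted p = 0.421). NDN (adjusted p = 0.720) and SNRPN (adjusted p = 0.290) did not pass. PLAGL1 had 13, 8 and 5 counts with shMITF against 1, 2 and 2, a ratio of 6.73 (2.55 to 22.5) near the 6.45 it had with shBRG1 against the same controls, and in a fit with no filter its adjusted p was 0.0629. The difference of the shMITF effect between lines was called for 0 of 7 tested members in edgeR's test, where 2% of 19284 genes were higher and 0.643% lower. At an unadjusted p under 0.05 there was 1 of the 7, where 3398 of 19284 genes were. It was H19, with 5.82 ± 2.15 (adjusted p = 0.180), which rests on 4 counts with shSCR and 1 with shMITF in Hermes 3A. In DESeq2 the adjusted p for H19 was 0.0257.

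The scramble groups of 501Mel themselves differed at these loci, and each knockdown was compared with 1 of them. The labels do not say whether shSCR1 and shSCR2 are different hairpins or separate experiments, and these cannot be told apart. With shSCR2 against shSCR1, H19 had a log2 difference of -3.19 ± 0.34 (adjusted p = 3.56e-05) and IGF2 of -2.58 ± 0.74 (adjusted p = 0.0118). Past the limit were thus 0 of 6 tested members upwards and 2 downwards, where 12.3% of 19056 genes were higher and 20.7% lower. Nothing is read from that count, or from the adjusted p of H19, IGF2 and MEG3, since these passed the filter only through shSCR1 samples. IGF2 had 0 and 4 counts with shSCR2, and without 1 of these libraries or the other its value was -6.33 or -2.04. H19 had 0.989 to 1.31 CPM with shSCR1 and 0.123 and 0.131 with shSCR2. PEG10 (0.87, adjusted p = 0.0149), SNRPN (-0.87, adjusted p = 0.0038) and NDN (0.24, adjusted p = 0.0142) moved by less than the limit, and MEG3 (-1.002, adjusted p = 0.0912) did not pass. The H19 level with shMITF in 1 replicate, 0.620 CPM, lay below that of every shSCR1 sample.

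The neighbours of the members in their imprinted clusters were followed from a list of 41, of which 30 matched an identifier. In 501Mel with shBRG1, 6 of 19 tested neighbours rose, where 21.7% of all genes did, and 5 fell, where 17.4% did, and their median log2 fold change was -0.50 against 0.05 over all genes. The largest adjusted p among these 11 calls was 0.00348, for KCNQ1. Nothing is read from the count of rises, since RTL1 and CALCR passed the filter on low counts only through shBRG1 samples. In Hermes 3A with shBRG1, 1 of 19 rose and 1 fell, where 5.78% and 3.47% of all genes did, with a median of -0.0014 against 0.0093. With shMITF, 2 of 17 rose and 1 fell in 501Mel, against 5.59% and 3.4% of all genes, and 1 of 17 rose and 2 fell in Hermes 3A, against 3.35% and 4.04%.

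**Figure D3:**
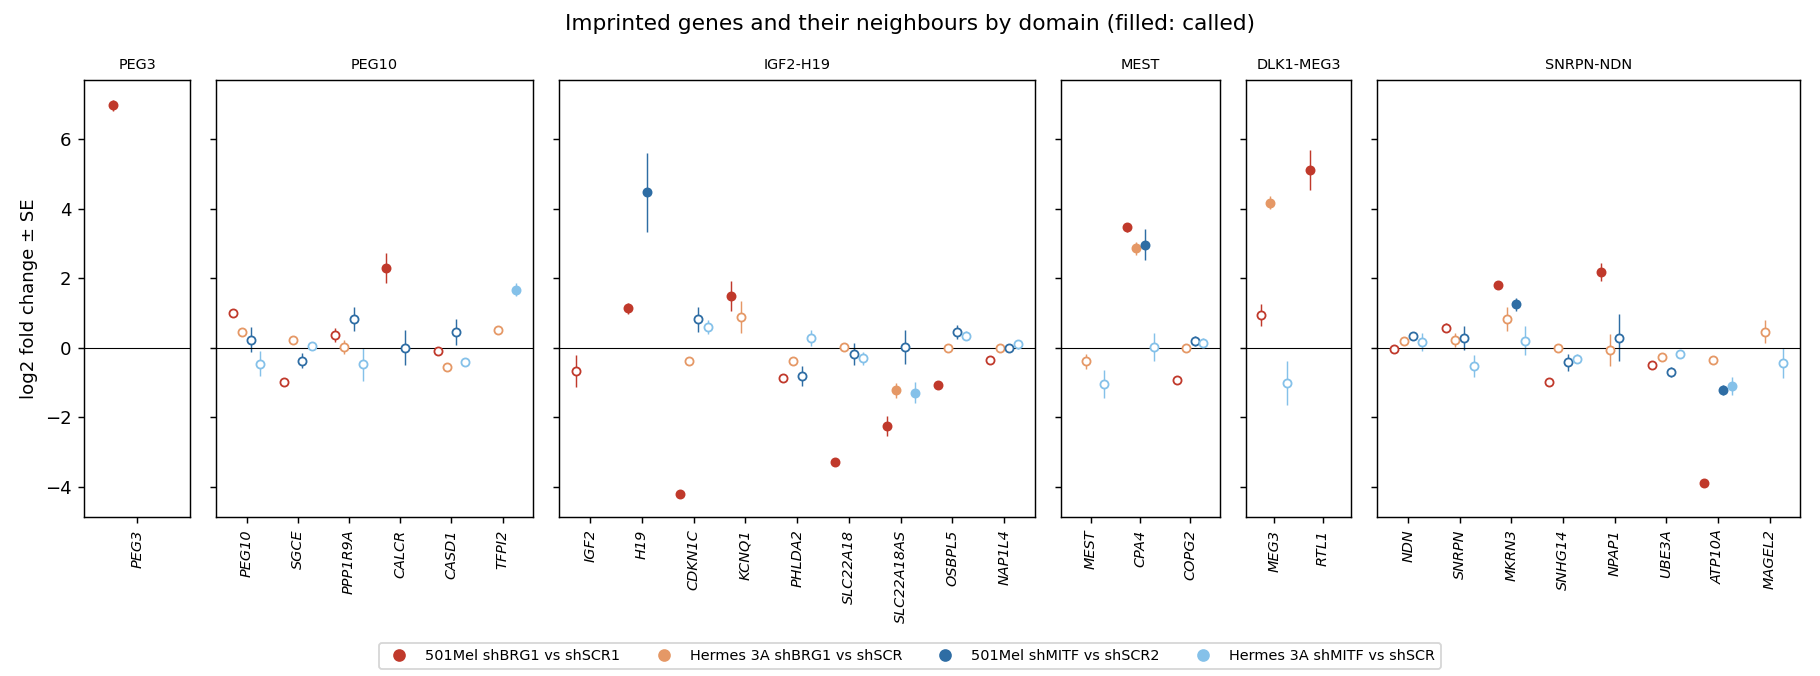
Fitted log2 fold changes with SE are shown for members and tested neighbours by imprinted cluster, in 4 colours for the 4 knockdown comparisons, filled where called. In the IGF2-H19 cluster H19 is above 0 at 1.13 and CDKN1C, SLC22A18, SLC22A18AS and OSBPL5 are below 0 at -4.20, -3.28, -2.26 and -1.07 in 501Mel with shBRG1. PEG3 in Hermes 3A is not drawn because its controls had 0 counts.

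In the cluster of H19 and IGF2, the neighbours called with shBRG1 in 501Mel mostly moved opposite to H19. CDKN1C, a maternally expressed inhibitor of the cell cycle, had 18.6, 19.7 and 19.4 CPM with shSCR1 and 1.08, 1.09 and 1.11 with shBRG1, and fell by 4.20 on the log2 scale (SE 0.10). It also stood at 1.11 and 0.845 CPM with shSCR2, a fall of 4.34 against shSCR1 (SE 0.16), so the levels with shBRG1 overlapped those of the other scramble group. SLC22A18, a transporter gene, went from 39.1 to 43.9 CPM with shSCR1 to 4.37 to 4.78 with shBRG1 and stood at 10.6 and 5.97 with shSCR2. It fell by 3.28 with shBRG1 (SE 0.07) and by 2.37 with shSCR2 (SE 0.24). SLC22A18AS, its antisense partner, fell by 2.26 (SE 0.29) and also fell in Hermes 3A, by 1.23 with shBRG1 (SE 0.21, adjusted p = 1.62e-05) and by 1.29 with shMITF (SE 0.30, adjusted p = 0.0215), the latter a call lost without shSCR replicate 1, 2 or 3 (adjusted p = 0.138, 0.0688 and 0.0951). As the strand setting is not given, the pair's reads cannot be told apart. OSBPL5, an oxysterol-binding protein gene, fell by 1.07 (SE 0.07) and lost the call against the pooled scramble controls (adjusted p = 0.296). KCNQ1, a potassium channel gene, rose by 1.5 ± 0.44, and without shSCR1 replicate 1 had 0.92. In Hermes 3A CDKN1C had 5.91 to 7.23 CPM with shSCR and 4.40 to 5.55 with shBRG1, and SLC22A18 had 76.0 to 87.0 and 79.2 to 83.1. The difference between lines was -3.84 ± 0.16 for CDKN1C and -3.33 ± 0.09 for SLC22A18 on the log2 scale.

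**Figure D4:**
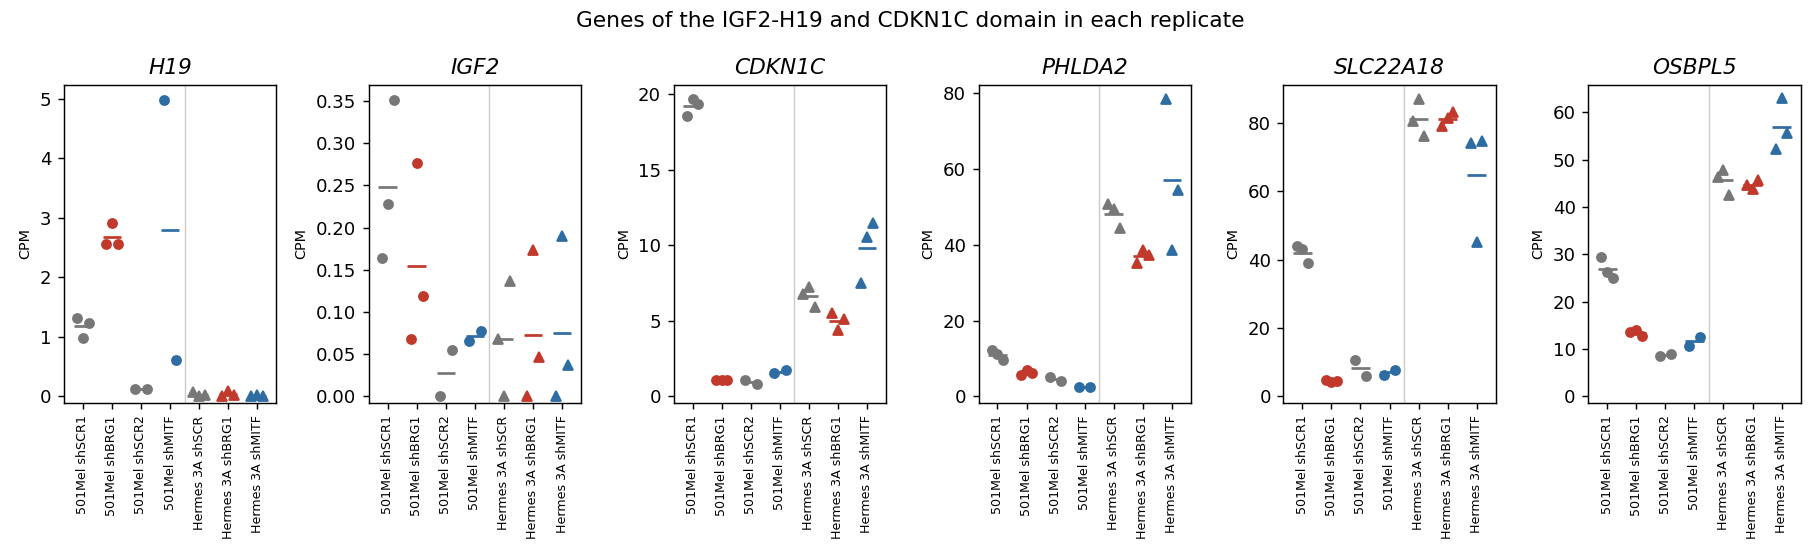
CPM of H19, IGF2, CDKN1C, PHLDA2, SLC22A18 and OSBPL5 is plotted for every replicate of the 7 groups on linear axes, with circles for 501Mel, triangles for Hermes 3A and a bar at each group mean. CDKN1C is at 18.6 to 19.7 CPM in the 3 shSCR1 samples of 501Mel and at 0.845 to 1.76 CPM in the 7 other 501Mel samples, which include the shSCR2 scramble.

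Beside MEG3 and DLK1, RTL1 had 1, 0 and 1 counts with shSCR1 and 50, 32 and 23 with shBRG1 in 501Mel. The ratio was 42.5 with a counting interval of 11.5 to 355. RTL1 was called higher, but it passed the filter on low counts only through its shBRG1 samples, so nothing is read from the call. It had 0 counts in the shSCR and shBRG1 samples of Hermes 3A. RTL1 thus gained in the line where MEG3 had 0.95, and not in the line where MEG3 had 4.18. Beside MEST, CPA4, a carboxypeptidase gene, was called in 3 of the 4 knockdown comparisons. It had 43, 42 and 20 counts with shSCR1 and 534, 539 and 435 with shBRG1 in 501Mel (3.47 ± 0.13), and 31, 16 and 36 with shSCR and 261, 277 and 184 with shBRG1 in Hermes 3A (2.86 ± 0.19, adjusted p = 2.33e-13). With shMITF it rose in 501Mel from 4 and 17 to 58 and 87 counts (2.97 ± 0.46, adjusted p = 0.00296). This last level, 1.28 and 1.68 CPM, compares with 0.585 to 0.881 CPM in shSCR1 samples, and the call was lost with pooled scramble controls (adjusted p = 0.239). CPA4 had 26, 26 and 12 counts in Hermes 3A with shMITF, which overlap the controls.

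Beside NDN and SNRPN, MKRN3, a ring finger gene, rose from 13.7 to 15.0 CPM with shSCR1 to 51.9 to 54.6 with shBRG1 in 501Mel (1.8 ± 0.06), while NDN in the same samples had -0.04. With shMITF it rose from 9.55 and 8.98 to 19.9 and 22.8 CPM (1.25 ± 0.19, adjusted p = 0.00273), a call lost with pooled scramble controls (adjusted p = 0.124). In Hermes 3A MKRN3 had at most 0.676 CPM, and it was higher in the controls of 501Mel by 4.98 ± 0.17. NPAP1 rose in 501Mel with shBRG1 (2.19 ± 0.26) from 18, 14 and 8 to 108, 63 and 66 counts. ATP10A, a phospholipid flippase gene at the far side of the cluster, moved the other way. It fell from 195.6 to 213.0 CPM to 13.5 to 15.9 CPM with shBRG1 in 501Mel, a log2 fold change of -3.88 ± 0.06. With shMITF in 501Mel it fell by 1.22 (SE 0.14, adjusted p = 0.00089), and against the pooled scramble controls the value was -2.42 ± 0.62 with an adjusted p of 0.0762. In Hermes 3A it fell by 1.11 with shMITF (SE 0.26, adjusted p = 0.0224). That call was lost without shSCR replicate 1, 2 or 3 (adjusted p = 0.0668, 0.0845 and 0.0778) and without shMITF replicate 3 (adjusted p = 0.0658), and the value was -0.863 without shMITF replicate 1 and -0.993 with library sizes only. ATP10A had 343.8 to 360.2 CPM with shSCR and 269.7 to 276.0 with shBRG1. Melanocyte markers fell in the same 501Mel samples, and their part in the ATP10A value was not tested.

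Beside PEG10, CALCR, the calcitonin receptor gene, rose with shBRG1 in 501Mel (2.30 ± 0.44) from 5, 1 and 5 to 29, 22 and 21 counts, but it had 21 and 97 counts with shSCR2, and against both scrambles pooled its value was -0.15. CALCR passed the filter on low counts against shSCR1 only through its shBRG1 samples, so nothing is read from that call. TFPI2, a protease inhibitor gene, had 374 to 485 counts in the Hermes 3A controls and at most 2 in those of 501Mel, and rose with shMITF in Hermes 3A by 1.68 ± 0.18 (adjusted p = 0.00109). In the comparison of the control samples, 9 of 20 tested neighbours were lower in 501Mel, where 18% of all genes were, and 1, MKRN3, was higher, where 20.1% were. Nothing is read from the count of lower neighbours, since TFPI2 and MAGEL2 passed the filter on low counts only through Hermes 3A. Between the scrambles, 1 of 17 was higher with shSCR2 and 6 were lower, against 12.3% and 20.7% of all genes. These counts are not read either, since CALCR passed the filter only through shSCR2 and CPA4 only through shSCR1.

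Imprinted genes at other loci, 26 of 27 matched, gave 2 rises and 4 falls among 19 tested in 501Mel with shBRG1, where 21.7% of all genes rose and 17.4% fell, with a median of -0.45 against 0.05. KCNK9, a potassium channel gene, also gained from near 0 there, with 2, 3 and 0 counts with shSCR1 and 149, 127 and 114 with shBRG1 (5.83 ± 0.33), but not in Hermes 3A, where it had at most 7 counts in shBRG1 libraries. KCNK9 passed the filter on low counts in 501Mel only through its shBRG1 samples, so nothing is read from its call or from the count of rises. NAP1L5 (-1.72 ± 0.05), ZDBF2 (-1.90 ± 0.05), TP73 (-1.65 ± 0.13) and IGF2R (-1.13 ± 0.05) fell, and IGF2R had -0.879 against the pooled scrambles. In Hermes 3A with shBRG1, 2 of 19 rose and 2 fell, where 5.78% and 3.47% of all genes did, among them NTM, a neural cell adhesion gene (1.56 ± 0.18), and NNAT (-1.33 ± 0.34), whose call was lost in a fit of all Hermes 3A groups (adjusted p = 0.0661). With shMITF NAP1L5 fell in 501Mel (-1.45 ± 0.14) and in Hermes 3A (-1.21 ± 0.22, a call lost without shSCR replicate 3, adjusted p = 0.0527), TRAPPC9 rose in 501Mel (1.22 ± 0.17) but not against the pooled scramble controls (adjusted p = 0.273), and NTM rose in Hermes 3A (3.37 ± 0.35), where IGF2R fell (-1.15 ± 0.16).

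Factors that set or keep imprints, 23 of 24 matched, gave 0 rises and 4 falls among 19 tested in 501Mel with shBRG1, where 21.7% of all genes rose and 17.4% fell, so the share that fell was near the background. Their median was -0.36 against 0.05 over all genes. Those that fell were the DNA methyltransferase DNMT3A (-1.55 ± 0.07), the 5-methylcytosine oxidase TET1 (-1.82 ± 0.08), the transcription factor YY1 (-1.13 ± 0.05) and the chromatin remodeller ATRX (-1.60 ± 0.06). Of the 19 tested in Hermes 3A with shBRG1, none was called, and the largest value was that of YY1 at -0.55. In edgeR's test 8 of the 19 had an unadjusted p under 0.05, as did 10444 of all 17222 genes. Nothing is read from that count. The shBRG1 effect was called lower in 501Mel than in Hermes 3A for 3 of 19, DNMT3A (-1.62 ± 0.09), TET1 (-1.71 ± 0.15) and ATRX (-1.69 ± 0.08). KDM1B, a histone demethylase needed for imprints in oocytes, fell with shMITF in 501Mel (-1.02 ± 0.16, adjusted p = 0.0038) and in Hermes 3A (-1.14 ± 0.16, adjusted p = 0.0031). The 501Mel call was lost against the pooled scramble controls (adjusted p = 0.335), and the value was -0.957 without shSCR2 replicate 1 and -0.827 without shMITF replicate 1.

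In the insulin-like growth factor pathway, to which IGF2 belongs, 16 of 16 genes were matched. In 501Mel with shBRG1, 1 of 12 tested rose, the adaptor IRS1 (1.57 ± 0.06), and 6 fell, with a median of -0.76 over the 12, where 21.7% of all genes rose and 17.4% fell. They include the receptors IGF1R (-1.55 ± 0.05) and INSR (-1.61 ± 0.07) and the binding proteins IGFBP2 (-2.03 ± 0.05) and IGFBP5 (-2.61 ± 0.13). With shSCR2 their mean levels also lay below those with shSCR1. IGF1R had 395 CPM with shSCR1, 141 with shBRG1 and 225 with shSCR2, and INSR 23.8, 8.17 and 10.2. IGFBP2 had 479, 123 and 148 CPM, and IGFBP5 7.84, 1.34 and 3.04. Over the alternatives, their log2 fold changes nearest 0 were, in this order, -1.21, -1.19, -1.52 and -2.16. After BRG1 loss in Hermes 3A, IGFBP2 fell (-1.67 ± 0.17) and no other of 14 was called. With shMITF, IGFBP5 rose (2.23 ± 0.52) and IGF1 fell (-1.87 ± 0.43) in 501Mel, calls lost against the pooled scramble controls (adjusted p = 0.256 and 0.734), while in Hermes 3A IRS2 rose (1.77 ± 0.14) and IGFBP2 (-2.36 ± 0.27), IGF2BP3 (-1.18 ± 0.12) and IGF2R (-1.15 ± 0.16) fell. The ligand gene IGF2 itself stayed at 16 counts or fewer in every library.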

How the data were processed

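RNA-seq of 19 samples was analysed from count files. For each sample the authors deposited whole-number read counts, not normalized, by Ensembl gene identifier. In 501Mel, 42224 identifiers were listed with shSCR1 and shBRG1 and 41467 with shSCR2 and shMITF. In Hermes 3A, 34033 were listed with shMITF and 42224 with shSCR and shBRG1. Each comparison used only identifiers listed in all its samples. According to the submitters' processing notes, CASAVA 1.8, TopHat 1.4.1, Bowtie 0.12.7 and the hg19 build were used. The counting program, its strand setting and the annotation are not given in the sources used here. Of 44717 identifiers, 41130 had a symbol in GENCODE 29, whose GRCh38 positions are given and were not mixed with hg19. Exon length per gene was the union of its exons there. Libraries were made from total RNA after ribosomal depletion with a duplex-specific nuclease step, which reduces abundant molecules and could compress high levels.

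Groups came from the sample labels. Genes were kept by filterByExpr, scaled by TMM and tested with edgeR's quasi-likelihood test (R 4.3.3, edgeR 4.0.16, limma 3.58.1) across all genes of each comparison, with Benjamini-Hochberg adjustment. A gene was called at an adjusted p under 0.05 and an absolute log2 fold change over 1. Group levels were CPM with TMM over all samples. Counting intervals were exact at 95%, and a count of 0 was taken to allow 3 counts over a group. The script was tested on simulated data. Alternatives were DESeq2 1.42.0, library sizes only, other filters on low counts, a replicate block, fits of all groups of a line, glmTreat, pooled scramble controls and leaving out each replicate.

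The members and the gene lists were chosen with earlier results of these data known. The lists were the neighbours of the members in their imprinted clusters, imprinted genes elsewhere, factors that set or keep imprints, the insulin-like growth factor pathway, and melanocyte, fibroblast and keratinocyte markers. The text names every member, each neighbour called in a knockdown, from the other lists at most the 4 genes per direction and comparison with the largest change among those called with at least 1 CPM, the 5 genes most like PEG3, and both targeted genes. No p is given for members with shBRG1, since that response chose them.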

Additional observations from a re-analysis of the deposited data

Results flagged for a closer look

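The shBRG1 effect differed between the lines, by a test of the difference itself in edgeR, for 10 neighbours of the members. Lower in 501Mel than in Hermes 3A were CDKN1C (log2 difference -3.84 ± 0.16, adjusted p = 1.83e-22), ATP10A (-3.57 ± 0.07, adjusted p = 6.03e-32), SLC22A18 (-3.33 ± 0.09, adjusted p = 1.91e-28), MAGEL2 (-1.61 ± 0.63, adjusted p = 0.0284), SGCE (-1.25 ± 0.09, adjusted p = 5.48e-15), OSBPL5 (-1.09 ± 0.09, adjusted p = 2.40e-13), SLC22A18AS (-1.05 ± 0.39, adjusted p = 0.0186) and SNHG14 (-1.0005 ± 0.07, adjusted p = 1.15e-14). Higher were CALCR (3.09 ± 0.69, adjusted p = 0.000194) and NPAP1 (2.21 ± 0.52, adjusted p = 0.000331). The MAGEL2 value rests on 2 to 8 counts per library in the shSCR1 and shBRG1 samples of 501Mel and 18 to 40 in the shSCR and shBRG1 samples of Hermes 3A. Its call was lost with library sizes only (adjusted p = 0.0672), with no filter (adjusted p = 0.0640) and on leaving out 6 of 12 libraries in turn (adjusted p 0.0510 to 0.0937). SLC22A18AS had -0.983 in DESeq2 and -0.782 with library sizes only, and lost the call on leaving out 4 of 12 libraries. SNHG14 had -0.918 in DESeq2, -0.726 with library sizes only, -0.948 with no filter and -0.806 where every library needed 10 counts, and lost the call for 4 of 12 libraries, where it lay between -0.998 and -0.909. With library sizes only SGCE had -0.970 and OSBPL5 -0.814, and OSBPL5 was -0.893 where every library needed 10 counts and -0.992 without shBRG1 replicate 1 of 501Mel. The 501Mel control in this test was shSCR1. CDKN1C had 18.6 to 19.7 CPM with shSCR1 but 1.11 and 0.845 with shSCR2, overlapping the 1.08 to 1.11 with shBRG1. With shSCR2 OSBPL5 had 8.631 and 8.872 CPM, below all its shBRG1 samples. SLC22A18 (10.6 and 5.97 CPM) and ATP10A (67.68 and 62.34 CPM) lay above their shBRG1 samples but below those with shSCR1. The difference between lines was not tested with shSCR2 as control. CALCR had 21 and 97 counts in the other scramble group of 501Mel, against 1 to 5 in the one used as control here. It passed the filter on low counts in this fit only through the shBRG1 samples of 501Mel, so nothing is read from its adjusted p.

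The shMITF effect differed between the lines for CPA4 (2.93 ± 0.64, adjusted p = 0.0291), TRAPPC9 (1.18 ± 0.21, adjusted p = 0.0120), IGF2R (1.18 ± 0.23, adjusted p = 0.0180) and IGFBP2 (2.28 ± 0.26, adjusted p = 0.000962), each higher in 501Mel. Of 10 libraries left out in turn, the call of CPA4 was lost for 6 (adjusted p 0.0504 to 0.165), that of IGF2R for 6 (0.0538 to 0.125) and that of TRAPPC9 for 4 (0.0529 to 0.0853), while IGFBP2 was called each time. Imprinted genes other than the members that were called higher numbered 0 to 5 over these fits. CPA4 in 501Mel was compared with shSCR2, where it had 4 and 17 counts, below the 20 to 43 counts with shSCR1.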

How the results depend on the processing

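The alternatives for members were planned, except those for the difference of the shBRG1 effect, which were chosen after seeing the data, as were those for neighbours and other lists. PEG3 with shBRG1 in 501Mel lay between 6.94 and 7.32 over the alternatives and MEG3 with shBRG1 in Hermes 3A between 4.18 and 4.28. The number of members called higher with shBRG1 in 501Mel, 2, became 4 with library sizes only, 1 in the fit of all groups of the line and 1 with glmTreat. With shMITF in 501Mel, 1 became 2 with no filter and 2 in the fit of all groups, and 0 where every library needed 10 counts, 0 against pooled scrambles and 0 by glmTreat. With shBRG1 in Hermes 3A 2 became 1 with at least 10 counts, since PEG3 is then removed. With shMITF in Hermes 3A 0 became 1 higher and 1 lower in the fit of all groups. Members lower in 501Mel than in Hermes 3A, 2, became 0 with at least 10 counts and 1 with shSCR1 only, and those lower with shSCR2, 2, became 0 with at least 10 counts. For the difference of the shMITF effect 0 higher became 1 in DESeq2, which is H19 and from which nothing is read. For that of the shBRG1 effect 1 lower became 0 with at least 10 counts.

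Silent genes that gained with shBRG1 in 501Mel, 54, numbered 25 at a minimum of 20 counts and 243 when up to 3 control counts were allowed, and in Hermes 3A 2 became 8 with up to 3 control counts. Reversed signs were met for CALCR with shBRG1 in 501Mel (-0.15 with pooled scrambles), SNRPN with shMITF in 501Mel (-0.33 with pooled scrambles), and SNRPN between lines (0.068 with library sizes only, 0.32 with shSCR1 only). On leaving out 1 replicate, PEG10 with shMITF in 501Mel ranged from -0.18 to 0.69, NDN with shMITF in Hermes 3A from -0.23 to 0.42, IGF2 between lines from -1.49 to 1.27, and the difference of the shMITF effect from -1.05 to 1.94 for MEST and from -0.092 to 0.55 for NDN. The causes of these changes were not tested.

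On leaving out 1 replicate, members called with shBRG1 in 501Mel numbered 2 to 3 higher and 0 to 1 lower, with shMITF in 501Mel 0 to 2 higher, with shBRG1 in Hermes 3A 2 to 3 higher, with shMITF in Hermes 3A 0 to 1 higher and 0 to 1 lower, between lines 3 to 4 higher, between scrambles 0 to 1 higher and 1 to 2 lower, and for the difference of the shBRG1 effect 1 to 3 lower. Where an arm was left with 1 sample, that sample was assumed to vary like the other groups. The replicate numbers did not pair the samples, as same-numbered samples of 501Mel with shBRG1 and shSCR1 deviated together at r between -0.07 and 0.15. With the replicate number as a block, members lower for the difference of the shBRG1 effect numbered 2 in place of 1, and no other count of called members changed. Depth limits PEG3 in the controls, IGF2, DLK1, PLAGL1 and MEST in 501Mel, each at a few counts per library, where only large changes could be seen.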
